A study of Mus musculus with 12 samples.

Results

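Phagocytic receptors and their bridging ligands were followed in mouse Sertoli cells with and without the RNA-binding protein PTBP1. The group comprised 7 genes chosen by name, namely the receptor tyrosine kinases Tyro3, Axl and Mertk, their ligands Gas6 and Pros1, the scavenger receptor Scarb1 and the engulfment adaptor Elmo1. All 7 were found among the 49585 genes of the table for sorted cells and among the 21823 genes of the table for cultured cells. All 7 also passed the filter on low counts, which left 13405 and 12854 genes to be tested.

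Sertoli cells nurse the germ cells of the seminiferous tubule and take up the many germ cells that die there, together with the residual bodies shed by elongated spermatids. Tyro3, Axl and Mertk (the TAM receptors) recognise a dying cell through Gas6 or protein S, the product of Pros1, which bind phosphatidylserine on its surface once vitamin K-dependent carboxylation has modified them. Scarb1 binds phosphatidylserine and also high-density lipoprotein, and Elmo1 works with Dock1 to activate the GTPase Rac1, which drives the membrane around the corpse. PTBP1 binds pyrimidine-rich RNA and is best known as a regulator of splicing.

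Of the 12 libraries, 6 came from testicular Sertoli cells isolated by fluorescence-activated sorting and 6 from Sertoli cells in primary culture. The sorted controls were AmhCre; Ptbp1 flox/wt; mTmG;wt (3 libraries) and the conditional knockouts (cKO) were AmhCre; Ptbp1 flox/flox; mTmG;wt (3 libraries), so both groups carried a Cre driven by the Amh promoter, the mTmG reporter and at least 1 floxed allele, and the controls were not wild type. The cultured cells were WT, with 3 libraries of input RNA and 3 of RNA immunoprecipitated with PTBP1 (PTBP1 IP), and no immunoprecipitate with a control antibody was used here. Ages are not given, and nothing in the labels says that replicates came from separate animals or cultures, so the p-values measure only how these libraries spread, and that spread may be technical. Cultured libraries are named 1_1, 1_2 and 2_1, and what the first number stands for is not given.

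The sorted libraries held 11980474 to 13750181 counts each, the inputs 12894035 to 15315115 and the PTBP1 IP libraries 26725003 to 28796396. Levels are given as CPM, counts scaled to a common library size that was adjusted by the trimmed mean of M values. Ptbp1, the deleted gene, was at 249, 251 and 241 CPM in the 3 control libraries and at 7.71, 7.99 and 7.64 CPM in the 3 cKO libraries. Of 20 Sertoli markers, 12 were lower and 1 was higher in cKO, where 21.4% of all tested genes were lower and 17.6% higher. Their summed level was 22091 to 23229 CPM in control and 16720 to 17796 CPM in cKO. Of 13 germ cell markers, 5 of the 10 tested were higher and 0 lower in cKO, against those same shares of all tested genes. Their sums were 261 to 382 CPM in control and 459 to 498 CPM in cKO. The highest were Ldhc, Piwil1 and Ddx4 in control and Ldhc, Piwil1 and Sycp1 in cKO. Only Prm1 was at 0 in all 6 sorted libraries. Leydig cell markers summed to 52.4 to 55.0 CPM in control and 72.1 to 90.4 CPM in cKO, with 2 of the 4 tested higher. The third library of each sorted group stood apart from its partners on the second principal component, which held 18.2% of the variance.

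The promoters of the receptors and ligands are shown because 4 of these 5 genes fell together in cKO and Mertk did not. Each sequence runs 5′ to 3′ on the gene's strand, from 250 bases before to 50 after the start annotated by RefSeq (GRCm38.p6), and capitals mark every GC box (GGGCGG or, on the other strand, CCGCCC; overlapping matches are counted separately).
Tyro3 (chr2:119799264-119799563, plus strand): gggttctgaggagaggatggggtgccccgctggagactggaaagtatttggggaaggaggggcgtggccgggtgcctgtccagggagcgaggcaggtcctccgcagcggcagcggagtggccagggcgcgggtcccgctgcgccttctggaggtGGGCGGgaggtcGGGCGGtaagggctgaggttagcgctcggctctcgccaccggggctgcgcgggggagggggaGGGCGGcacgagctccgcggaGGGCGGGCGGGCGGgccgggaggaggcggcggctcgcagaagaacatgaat
Axl (chr7:25788684-25788983, minus strand): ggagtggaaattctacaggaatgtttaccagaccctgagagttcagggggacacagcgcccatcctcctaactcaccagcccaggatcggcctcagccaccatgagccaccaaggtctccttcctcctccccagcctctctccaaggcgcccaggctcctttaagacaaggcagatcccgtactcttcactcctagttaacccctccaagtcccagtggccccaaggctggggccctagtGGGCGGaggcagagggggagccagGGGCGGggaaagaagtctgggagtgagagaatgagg
Mertk (chr2:128698665-128698964, plus strand): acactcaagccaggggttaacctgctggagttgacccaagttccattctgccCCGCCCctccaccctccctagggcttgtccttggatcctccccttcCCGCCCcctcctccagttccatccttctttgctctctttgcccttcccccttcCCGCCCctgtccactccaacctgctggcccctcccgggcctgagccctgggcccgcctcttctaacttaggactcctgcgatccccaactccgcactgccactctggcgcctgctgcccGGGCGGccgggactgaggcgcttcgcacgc
Gas6 (chr8:13494486-13494785, minus strand): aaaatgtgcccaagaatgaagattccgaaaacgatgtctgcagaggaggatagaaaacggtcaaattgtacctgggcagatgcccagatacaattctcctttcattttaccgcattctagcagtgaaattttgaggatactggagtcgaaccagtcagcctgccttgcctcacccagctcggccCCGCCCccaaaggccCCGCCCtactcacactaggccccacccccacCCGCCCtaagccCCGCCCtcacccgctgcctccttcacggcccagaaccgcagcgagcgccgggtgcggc
Pros1 (chr16:62854057-62854356, plus strand): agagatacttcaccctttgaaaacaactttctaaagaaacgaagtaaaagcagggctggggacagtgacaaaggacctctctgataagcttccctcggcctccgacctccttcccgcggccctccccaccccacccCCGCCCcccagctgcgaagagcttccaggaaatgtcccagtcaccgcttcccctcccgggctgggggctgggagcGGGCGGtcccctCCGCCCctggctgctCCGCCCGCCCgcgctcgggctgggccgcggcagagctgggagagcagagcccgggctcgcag
The promoter table matched 6 of the 7 genes, with 2 starts for Elmo1 and no entry for Scarb1. For Tyro3 the window lies inside the deposited gene position, which begins at 119797733, so the 2 annotations place its start differently. GC boxes numbered 6 for Tyro3, 2 for Axl, 4 for Mertk, 4 for Gas6 and 5 for Pros1, and 35.7% of the 32851 promoters in the table held at least 1. The number was the same for Mertk and Gas6. None of these 5 promoters held a TATA box (TATAAA or TTTATA, present in 13.6% of all promoters) or a CCAAT box (CCAAT or ATTGG, present in 37.4%). Their GC content was 73.3% for Tyro3, 60.3% for Axl, 66% for Mertk, 58.3% for Gas6 and 66.7% for Pros1, against a median of 52.7% over all promoters. These matches describe the letters of the windows and were not tested against expression.

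In cells lacking PTBP1, Axl and Tyro3 transcripts fell, those of both ligands fell, Scarb1 fell, and Mertk did not pass the test. In all, 6 of the 7 genes were lower and the remaining 1 was not called, where 21.4% of all tested genes were lower, 17.6% were higher and thus 39% differed at an adjusted p under 0.05 (edgeR's quasi-likelihood test, with the Benjamini-Hochberg adjustment made across the whole table). The number lower ranged from 4 to 6 under 12 other settings, where Pros1 lost its call in 3 and Elmo1 in 7. The 7 genes were chosen with earlier results of these data known, so their count is a description and not a test of the set. The median log2 fold of the 7 genes was -0.59, against 0.00 over all tested genes. The groups did not overlap for the 6 lower genes, as was true in 1 direction or the other for 49.7% of all tested genes. In these bulk libraries, fewer cells of a type and less RNA per cell cannot be told apart. The part of the changes in Sertoli, germ and Leydig cell marker sums in these results was not tested.

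**Figure D1:**
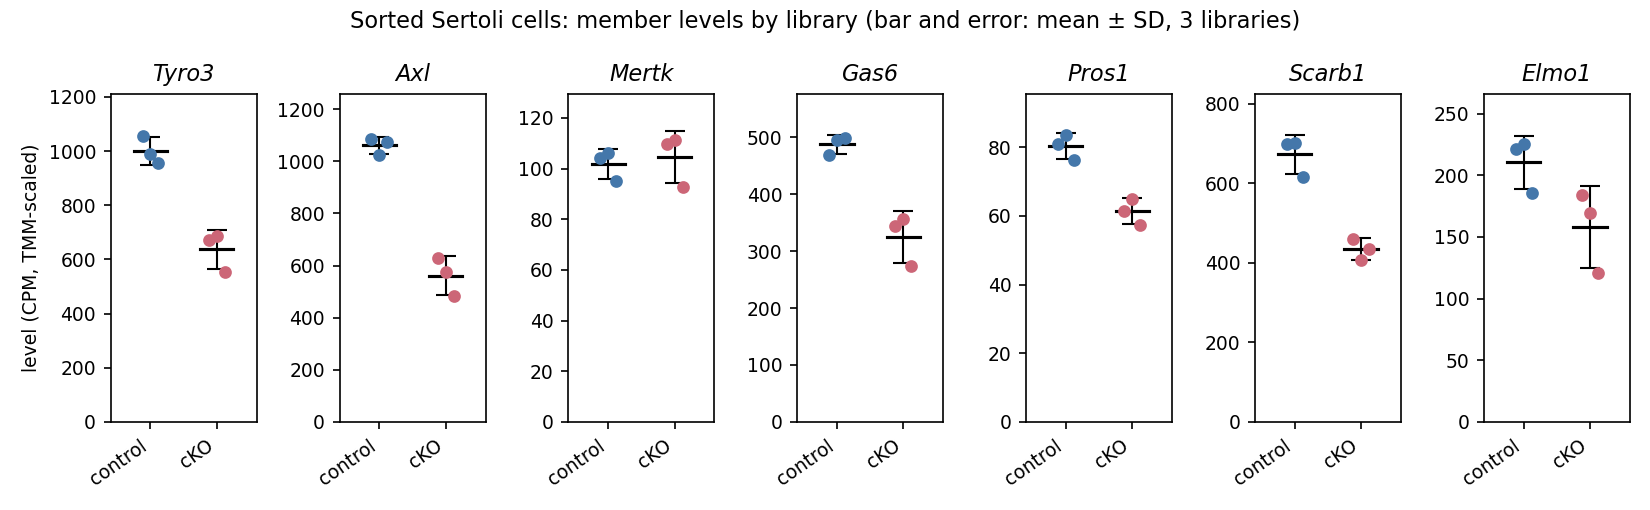
Level of each of the 7 genes in sorted cells, in CPM on a linear axis from 0 with its own scale per gene. Points are the 3 control and 3 cKO libraries, and the bar and whiskers are the mean and 1 SD. The 2 groups overlap for Mertk and are separate for the other 6 genes.

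Among the TAM receptors, Axl (chr7:25757273-25788705) binds Gas6 and has a soluble form released by proteases. Axl was at 1087, 1024 and 1073 CPM in control and at 628, 576 and 481 CPM in cKO. Every cKO library was below every control library, and the third cKO library was the lowest. The log2 fold was -0.92 (SE 0.12), or 52.9% of the control level, with an adjusted p of 2.14e-04 from edgeR's quasi-likelihood test.

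Tyro3 (chr2:119797733-119818104), which binds both protein S and Gas6, was at 1057, 990 and 955 CPM in control and at 673, 685 and 552 CPM in cKO. These groups too were separate, with the third cKO library again the lowest. This was a log2 fold of -0.65 (SE 0.12), or 63.6% of the control level, with an edgeR adjusted p of 0.00117.

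Mertk (chr2:128698956-128802894), the TAM receptor best known from clearance of photoreceptor outer segments by the retinal pigment epithelium, was at 104, 106 and 95.2 CPM in control and at 110, 111 and 92.9 CPM in cKO. The groups overlapped, and the third library of each was its lowest. The log2 fold was 0.04, with a 95% interval of -0.20 to 0.28 and an edgeR adjusted p of 0.814, and its sign turned when control library 3 was left out (log2 fold -0.022) and likewise for cKO library 1 (-0.00136) and cKO library 2 (-0.0089). A fall of the size seen for Axl lay outside this interval.

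The 3 receptors therefore made up TAM mRNA in different proportions in the 2 genotypes. Per kilobase of exon, their summed level was 396 ± 12.8 CPM per kb (SD, n = 3) in control and 238 ± 28.3 CPM per kb (SD, n = 3) in cKO. Mertk supplied 5.64% to 6.30% of that sum in control and 9.77% to 10.4% in cKO, while Axl supplied 52.5% to 54.8% and 45.7% to 48.2%. The ratio of Axl to Mertk per kilobase was 9.01 ± 0.69 (SD, n = 3) in control and 4.62 ± 0.27 (SD, n = 3) in cKO. The ratio of Axl to Tyro3 was 1.31 ± 0.07 (SD, n = 3) in control and 1.09 ± 0.06 (SD, n = 3) in cKO. Neither ratio overlapped between the groups, and each gave p = 0.10 by a 2-sided exact permutation test, the smallest that 3 against 3 libraries allow (adjusted p = 0.10 over the 6 ratio comparisons made).

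**Figure D2:**
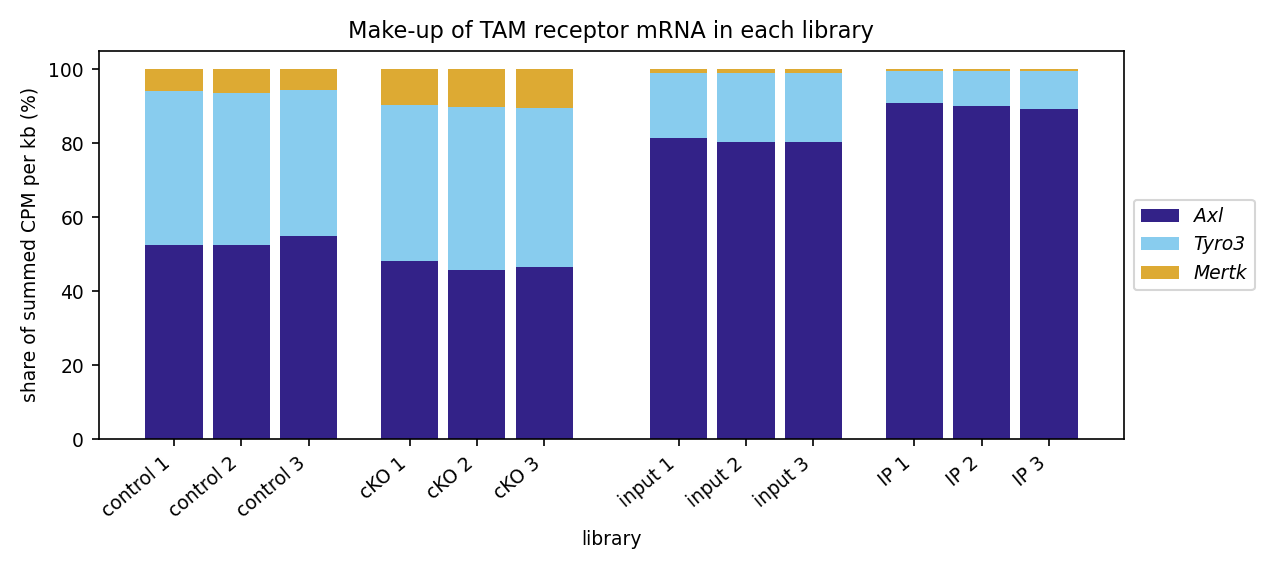
Share of each TAM receptor in the summed level of the 3 receptors, in percent of CPM per kilobase of exon, with 1 bar per library. Mertk takes 5.64% to 6.30% in control, 9.77% to 10.4% in cKO and 0.445% to 1.08% in the cultured libraries, where Axl takes most.

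Transcripts of both ligands were present in every sorted library. Gas6 (chr8:13465374-13494490), which can bridge all 3 TAM receptors to phosphatidylserine, was at 469, 496 and 498 CPM in control and at 344, 357 and 273 CPM in cKO. All 3 cKO libraries were below the controls, and the third was the lowest. The log2 fold was -0.59 (SE 0.12), or 66.6% of the control level, with an edgeR adjusted p of 0.00259. The Gas6 gene overlaps the protein-coding gene Tmem255b in the RefSeq annotation, and whether the counting used strand is not given in the sources used here, so its counts could include reads of that neighbour.

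Pros1 (chr16:62854307-62929346), which encodes protein S, a TAM ligand that is also a plasma anticoagulant, was at 80.9, 83.7 and 76.2 CPM in control and at 61.6, 65.0 and 57.4 CPM in cKO. The groups were separate, though the estimated fold was closer to 0 than that of Gas6. Its log2 fold was -0.39 (SE 0.10), with an edgeR adjusted p of 0.0116, but Pros1 no longer passed when control library 1 (adjusted p of 0.0585) or control library 2 (0.0761) was left out, or with library size alone (0.110). The ratio of Gas6 to Pros1 per kilobase was 9.76 ± 0.64 (SD, n = 3) in control and 8.47 ± 0.72 (SD, n = 3) in cKO, without overlap (p = 0.10, 2-sided exact permutation test, the smallest possible here).

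Scarb1 (chr5:125277087-125341094), the scavenger receptor that Sertoli cells use for both phosphatidylserine and lipoprotein, was at 699, 701 and 616 CPM in control and at 461, 407 and 435 CPM in cKO. Its groups were separate, and here the second cKO library was the lowest. This was a log2 fold of -0.63 (SE 0.11), or 64.6% of the control level, with an edgeR adjusted p of 9.03e-04.

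Elmo1 (chr13:20090596-20606528), the engulfment adaptor, is the longest of the 7 genes at 516 kb. It was at 221, 225 and 186 CPM in control and at 184, 169 and 121 CPM in cKO. The third control library lay only just above the first cKO library, so the separation was narrow. Its log2 fold was -0.41 (SE 0.15), with an edgeR adjusted p of 0.0475, close to the threshold. Under 7 of 12 other settings Elmo1 did not pass, among them the omission of cKO library 3 (log2 fold -0.25, adjusted p of 0.0792), of cKO library 2 (0.0704), of control library 1 (0.170) or of control library 2 (0.185). Scarb1 and Elmo1 each overlap a long noncoding RNA gene in the annotation (Gm32701 and Gm32036), and reads of these could not be set aside.

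In the authors' deposited table of their own comparison, Axl had a signed fold of -1.83 and a false discovery rate of 4.13e-08. In the authors' deposited table Tyro3 (-1.53, false discovery rate 2.30e-04), Scarb1 (-1.504, 1.42e-04) and Gas6 (-1.46, 0.00241) also passed 0.05. There, in the authors' deposited table, Pros1 (-1.27, 0.132), Elmo1 (-1.29, 0.236) and Mertk (1.06, 1) did not.

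Axl, Mertk and Scarb1 are also expressed by macrophages, which lie in the testicular interstitium. Of 14 macrophage markers in the table, 4 were tested, with edgeR adjusted p-values from 0.414 to 0.916. Their summed level was 118 to 137 CPM in control and 91.7 to 159 CPM in cKO, almost all of it from Mrc1 (127, 117 and 99.4 CPM in control, 146, 146 and 82.7 CPM in cKO). The other 13 summed to 9.38 to 18.9 CPM in control and 8.94 to 13.1 CPM in cKO. No single value among them was above 5.33 CPM, which was reached by Fcer1g. Of the 14 markers, 9 averaged under 1 CPM in control and 10 in cKO. Which cells the Mrc1 transcripts came from was not tested.

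The order of the 7 levels was read per kilobase of exon. In control, Axl (211 CPM per kb) stood above Gas6 (191), Tyro3 (161) and Scarb1 (107), each without overlap with the next, and these were followed by Mertk (23.5), Elmo1 (20.8) and Pros1 (19.6), whose neighbours overlapped. The members thus fell into 4 abundant and 3 scarcer transcripts. In cKO the order at the top changed to Gas6 (127 CPM per kb), Axl (112) and Tyro3 (103), and these neighbours overlapped. Scarb1 (69.2) and Mertk (24.1) followed, each separate from the next, and Elmo1 (15.6) overlapped with Pros1 (15.002).

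The RNA immunoprecipitation asked which transcripts were recovered with PTBP1 from cultured wild-type Sertoli cells. Elmo1 was the only 1 of the 7 genes enriched at a log2 fold of 1 or more, Axl was also higher in PTBP1 IP than in input, and Gas6, Mertk, Tyro3 and Pros1 were lower. In this comparison 87.8% of all tested genes passed the edgeR test, with 43% higher, 44.8% lower and 20.7% enriched at a log2 fold of 1 or more, so that a call alone says little about a gene. The count of 2 higher, 4 lower and 1 not called among the 7 genes, with a median log2 fold of -0.18 against -0.03 over all tested genes, is read against that background. Folds are relative to the other transcripts of the same libraries, and with library size alone the median of all genes moved by -0.36 on the log2 scale.

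**Figure D3:**
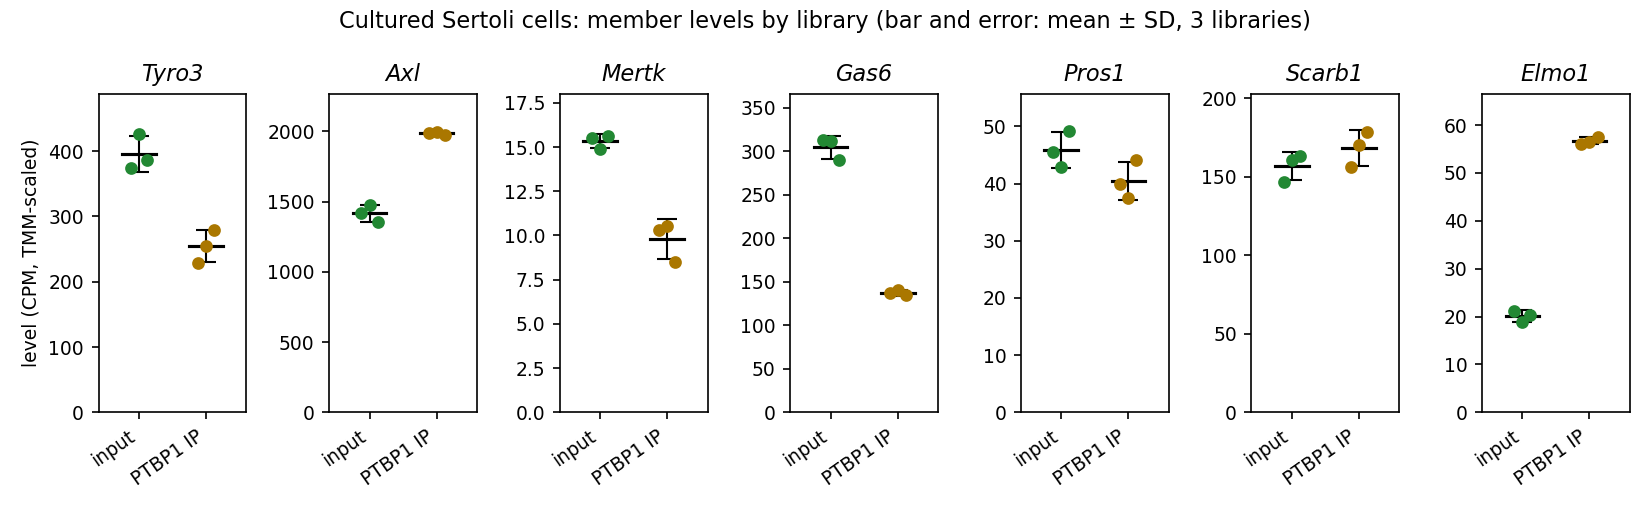
Level of each of the 7 genes in cultured cells, in CPM on a linear axis from 0 with its own scale per gene. Points are the 3 input and 3 PTBP1 IP libraries, and the bar and whiskers are the mean and 1 SD. Elmo1 and Axl are higher in every PTBP1 IP library, Gas6, Tyro3 and Mertk lower, and Pros1 and Scarb1 overlap.

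Elmo1 was at 21.2, 18.8 and 20.4 CPM in input and at 56.1, 56.5 and 57.5 CPM in PTBP1 IP. Every immunoprecipitate was above every input. Its log2 fold was 1.5 (SE 0.06), a 2.82-fold enrichment, with an edgeR adjusted p of 2.44e-14, and Elmo1 stayed past a log2 fold of 1 under all 12 other settings (1.13 to 1.54).

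Axl was at 1419, 1474 and 1353 CPM in input and at 1987, 1992 and 1976 CPM in PTBP1 IP. The groups were separate, with little spread among the immunoprecipitates. The log2 fold was 0.49 (SE 0.04), with an edgeR adjusted p of 1.19e-09, and it fell to 0.12 with library size alone, where it was still called.

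Tyro3 was at 375, 426 and 386 CPM in input and at 229, 255 and 279 CPM in PTBP1 IP, a log2 fold of -0.64 (SE 0.07) with an edgeR adjusted p of 1.03e-06. Mertk, which was scarce in culture, was at 15.5, 14.9 and 15.6 CPM in input and at 10.3, 10.6 and 8.48 CPM in PTBP1 IP, a log2 fold of -0.65 (SE 0.09) with an edgeR adjusted p of 3.44e-06. Neither receptor overlapped between the groups, as was true for 87.9% of all tested genes. The 3 TAM receptors thus differed in direction, and Axl made up 80.2% to 81.5% of their summed level per kilobase in input and 89.3% to 90.9% in PTBP1 IP. The ratio of Axl to Tyro3 was 4.41 ± 0.22 (SD, n = 3) in input and 9.68 ± 0.97 (SD, n = 3) in PTBP1 IP (p = 0.10, 2-sided exact permutation test, the smallest possible here), and it does not depend on the scaling of the libraries.

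Of the ligands, Gas6 was at 313, 311 and 290 CPM in input and at 137, 141 and 134 CPM in PTBP1 IP. It had the lowest log2 fold of the 7 genes, -1.15 (SE 0.05), with an edgeR adjusted p of 8.92e-15, and the groups were separate. Pros1 was at 45.5, 42.9 and 49.2 CPM in input and at 39.996, 37.5 and 44.1 CPM in PTBP1 IP, where the third immunoprecipitate lay above the second input. Its log2 fold was -0.18 (SE 0.07), with an edgeR adjusted p of 0.0204, but Pros1 did not pass when input 3 (adjusted p of 0.134), immunoprecipitate 1 (0.0658) or immunoprecipitate 2 (0.163) was left out, or with DESeq2 (0.105). The ratio of Gas6 to Pros1 was 10.7 ± 1.13 (SD, n = 3) in input and 5.47 ± 0.56 (SD, n = 3) in PTBP1 IP (p = 0.10, 2-sided exact permutation test, the smallest possible here).

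Scarb1 was at 147, 161 and 163 CPM in input and at 156, 170 and 179 CPM in PTBP1 IP, and the groups overlapped. Its log2 fold was 0.10, with a 95% interval of -0.01 to 0.21 and an edgeR adjusted p of 0.0933. Its call changed with the settings, since Scarb1 was higher with DESeq2's size factors (log2 fold 0.13, adjusted p of 0.0367), without the first immunoprecipitate (0.17, 0.00663) and without a filter on low counts (0.11, 0.0499), and lower with library size alone (-0.27, 1.65e-04).

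**Figure D4:**
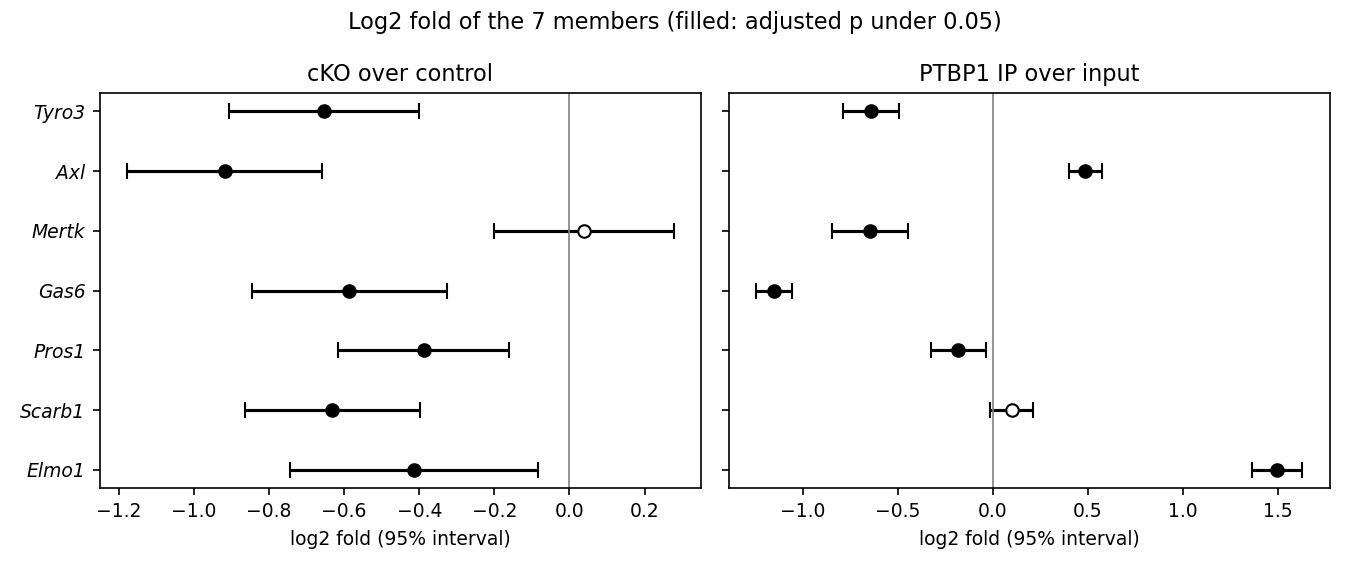
Log2 fold of each of the 7 genes with its 95% interval, for cKO over control in sorted cells on the left and PTBP1 IP over input in cultured cells on the right. Filled points passed an adjusted p of 0.05. Axl and Elmo1 lie below 0 on the left and above 0 on the right, and Tyro3, Gas6 and Pros1 lie below 0 in both.

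Set side by side, the 2 comparisons grouped the genes in 4 ways, with no test of the difference between comparisons made on different cells and tables. Axl and Elmo1 were lower in cKO and higher in PTBP1 IP. Tyro3, Gas6 and Pros1 were lower in both, Mertk was lower in PTBP1 IP and not called in cKO, and Scarb1 was lower in cKO and not called in PTBP1 IP. This grouping holds for the main fit. Of 12 other settings, Elmo1 was not called in cKO in 7, and Pros1 in 3 for cKO and 4 for PTBP1 IP. Scarb1 was called in PTBP1 IP in 6. In PTBP1 IP 87.8% of all tested genes were called, so a direction there says little about a gene.

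In cultured cells the 4 abundant genes kept the order of the sorted controls, and the 3 scarcer ones, whose neighbours overlapped in control, stood in another. Levels were not tested across the 2 tables, which differ in kit and kind of RNA. In input the levels per kilobase ran from Axl (281 CPM per kb) through Gas6 (120), Tyro3 (63.9), Scarb1 (25.01), Pros1 (11.2) and Mertk (3.54) to Elmo1 (1.99), with no overlap between neighbours. In PTBP1 IP, Axl (394 CPM per kb) was followed by Gas6 (53.9), Tyro3 (41.0), Scarb1 (26.8) and Pros1 (9.91), and Elmo1 (5.61) came above Mertk (2.26). Exon lengths were those of the table for sorted cells. Marker sums of other cells differed in both directions between input and the sorted controls. Those of myoid, Leydig and endothelial cells were higher in input, and those of germ cells, macrophages and blood cells were lower. Those of peritubular myoid cells, 7 in number, summed to 2298 to 2350 CPM in input against 172 to 213 CPM in the sorted controls. Leydig cell markers summed to 245 to 249 CPM against 52.4 to 55.0 CPM, and endothelial markers to 110 to 122 CPM against 9.93 to 16.8 CPM. Which cells these transcripts came from and their part in these levels were not tested. Macrophage markers summed to 13.1 to 14.4 CPM in input against 118 to 137 CPM in the sorted controls. Germ cell markers summed to 25.4 to 26.4 CPM against 261 to 382 CPM, and blood cell markers to 1.06 to 1.29 CPM against 33.8 to 62.1 CPM.

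Other receptors and bridging molecules for dying cells included 25 genes, of which 15 were tested, and in cKO 3 were lower, 2 higher and 10 not called (edgeR), with a median log2 fold of 0.14. These counts are near the 21.4% lower and 17.6% higher among all tested genes. The 2 higher became 4 with library size alone and 1 without control library 2 or 3 or cKO library 2. Those that fell included the secreted bridge Mfge8, which joins phosphatidylserine to integrins. Mfge8 was at 357, 384 and 344 CPM in control and at 184, 210 and 232 CPM in cKO, a log2 fold of -0.79 (SE 0.11) with an edgeR adjusted p of 3.62e-04. Itgb5, the beta chain of an integrin that binds Mfge8, was at 517, 528 and 503 CPM in control and at 282, 302 and 226 CPM in cKO, a log2 fold of -0.93 (SE 0.12) with an edgeR adjusted p of 2.14e-04. Itgav, the alpha chain that pairs with it, was higher in cKO, with a log2 fold of 0.32 (adjusted p of 0.0330), a call that was lost when control library 1 (0.0676), 2 (0.114) or 3 (0.0732) or cKO library 2 (0.116) or 3 (0.0594) was left out. Calr, which serves as an eat-me signal on dying cells, fell by 0.52 on the log2 scale (adjusted p of 0.0102, and 0.067 with library size alone), and Anxa5, which binds phosphatidylserine, rose with a log2 fold of 0.87 (adjusted p of 0.00805). In PTBP1 IP, 6 of the 15 tested were higher and 6 lower, near the 43% and 44.8% of all tested genes, among them Mfge8 (log2 fold 1.03), Itgav (1.51) and Itgb5 (-0.20), and Anxa1, an inhibitor of inflammation found on dying cells, was lowest at -2.93.

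Of 24 genes of the engulfment machinery, 22 were tested in cKO, and 8 were lower, 2 higher and 12 not called, with a median log2 fold of -0.20, where 21.4% of all tested genes were lower and 17.6% higher. The 8 lower became 5 with library size alone, and the 2 higher became 1 when any single library but cKO library 3 was left out or the filter on low counts was dropped. Rhog, the GTPase that recruits Elmo1 to the membrane, was at 107, 104 and 88.1 CPM in control and at 46.4, 43.2 and 47.8 CPM in cKO, a log2 fold of -1.12 (SE 0.11) with an edgeR adjusted p of 6.89e-05. The adaptor Bcar1 (log2 fold -0.80), the actin regulator Wasf2 (-0.74) and Rhoa (-0.62), a GTPase that opposes engulfment, also fell, with adjusted p-values of 3.66e-04, 6.26e-04 and 6.92e-04. Elmo2, a close relative of Elmo1, had a log2 fold of -0.41 (adjusted p of 0.0283), which did not pass when control library 1 (0.122) or 3 (0.0680) or cKO library 1 (0.0720) or 2 (0.0655) was left out. Dock1 (log2 fold -0.12, adjusted p of 0.579) and Rac1 (-0.13, 0.402) were not called, although Rac1 passed without the third library of both groups (-0.25, 0.0295). In PTBP1 IP, 17 of the 24 were higher, 3 lower and 4 not called, with a median log2 fold of 0.52, against 43% higher and 44.8% lower of all tested genes, and the 3 lower became 9 with library size alone. At a log2 fold of 1 or more, 6 of the 24 were enriched, near the 20.7% of all tested genes. Crkl (log2 fold 1.61), Rac1 (1.30), Dock1 (0.47) and Rhog (0.48) were higher, Rhog not so where libraries were scaled by total alone (0.11, adjusted p of 0.123), and Elmo2 (-0.09, adjusted p of 0.116) was not called.

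**Figure D5:**
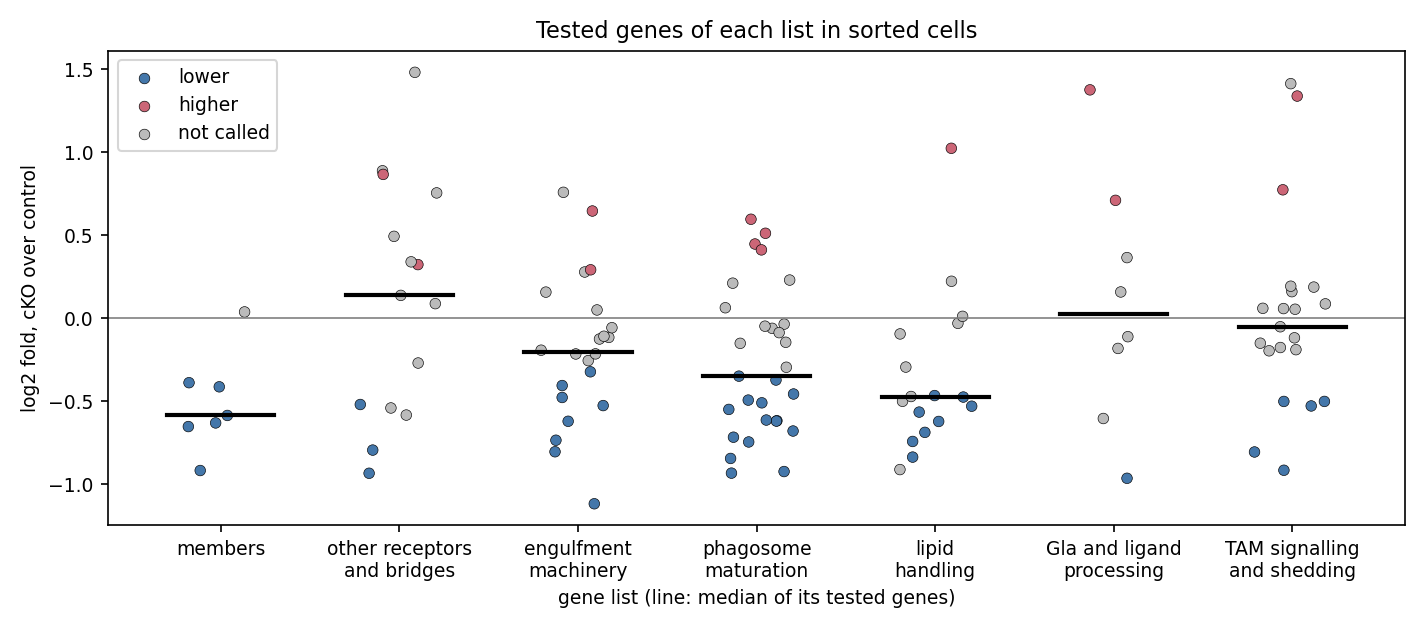
Log2 fold in sorted cells (cKO over control) of every tested gene of the 7 listed genes and of 6 related lists, with 1 point per gene and a line at each list's median. Blue points are called lower, red points higher and grey points not called. Medians lie at -0.59 for the 7 genes, -0.48 for lipid handling, -0.35 for phagosome maturation and between -0.20 and 0.14 for the other 4 lists.

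Downstream of engulfment, phagosome maturation genes were tested in full, and 15 of 29 were lower in cKO, 4 higher and 10 not called, with a median log2 fold of -0.35, where 21.4% of all tested genes were lower and 17.6% higher. Of the HOPS tethering complex, which fuses phagosomes with lysosomes, Vps11, Vps18, Vps33a and Vps39 were lower, and Vps16 and Vps41 were not called. Vps11 was at 200, 177 and 194 CPM in control and at 122, 108 and 118 CPM in cKO (log2 fold -0.72, SE 0.10, edgeR adjusted p of 3.77e-04), and Vps33a had a log2 fold of -0.68 (adjusted p of 4.52e-04). Mon1a, which with Ccz1 exchanges Rab5 for Rab7, fell by 0.92 on the log2 scale (adjusted p of 4.08e-04), Rab5b fell by 0.62 (6.41e-04), and Ccz1 rose with a log2 fold of 0.45 (0.00684). In PTBP1 IP, 11 of 29 were higher and 16 lower (43% and 44.8% of all tested genes), with Lamp2, a lysosomal membrane protein, at a log2 fold of 1.46 and Ccz1 at -2.74.

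Lipid-handling genes, which deal with the cholesterol and fatty acids of ingested cells, showed 8 of 17 tested lower in cKO, 1 higher and 8 not called, with a median log2 fold of -0.48, where 21.4% of all tested genes were lower and 17.6% higher. The 8 lower became 5 when control library 1 or control library 2 was left out, and the 1 higher became 2 without the filter on low counts. The nuclear receptor partners Rxrb (log2 fold -0.84, edgeR adjusted p of 1.56e-04) and Nr1h2 (-0.69, 5.28e-04), the latter an oxysterol sensor that induces Mertk in macrophages, both fell. Stard3, a cholesterol transporter of late endosomes, fell by 0.62 on the log2 scale (adjusted p of 0.00207), and Stard4, a soluble sterol carrier, rose from 26.5, 21.6 and 26.4 CPM to 47.0, 49.0 and 55.5 CPM (log2 fold 1.02, SE 0.13, edgeR adjusted p of 2.08e-04). In PTBP1 IP, 10 of 17 were higher and 7 lower, against 43% and 44.8% of all tested genes. Soat1, which esterifies cholesterol, had a log2 fold of 1.87, and Npc2, a lysosomal cholesterol carrier, one of -1.88.

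Of 8 tested genes for vitamin K-dependent carboxylation, propeptide cleavage and related Gla proteins, 1 was lower in cKO, 2 were higher and 5 were not called, with a median log2 fold of 0.02, where 39% of all tested genes were called in either direction. The 1 lower became 2 without control library 3, without cKO library 3 or without the filter on low counts. Ggcx, the carboxylase itself, had a log2 fold of -0.11 (edgeR adjusted p of 0.594), and Vkorc1, which recycles vitamin K, one of -0.60 (0.0701) at 8.30 to 11.96 CPM in control. Vkorc1 passed without control library 3 (log2 fold -0.77, adjusted p of 0.0333) or cKO library 3 (-0.85, 0.0131). Furin, a propeptide-cleaving protease, was at 392, 356 and 395 CPM in control and at 199, 203 and 184 CPM in cKO (log2 fold -0.96, SE 0.10, edgeR adjusted p of 8.94e-05). The Gla-domain membrane proteins Prrg4 and Prrg1 rose, with log2 folds of 1.38 (adjusted p of 7.65e-04) and 0.71 (0.00538). In PTBP1 IP, 7 of 10 were higher and 2 lower (43% and 44.8% of all tested genes), among them Ggcx at a log2 fold of 1.81 and Vkorc1l1, a relative of Vkorc1, at 1.002.

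Of 21 tested genes that act on or below the TAM receptors, 5 were lower in cKO, 2 higher and 14 not called, with a median log2 fold of -0.05, and the share lower is near the 21.4% of all tested genes. Fewer than 2 were higher when control library 1, 2 or 3 or cKO library 3 was left out. Socs3 and Socs1, suppressors of cytokine signalling that TAM receptors induce in dendritic cells, fell by 0.81 and 0.92 on the log2 scale (edgeR adjusted p of 2.53e-04 and 0.00387). The kinase Src and the phosphoinositide 3-kinase subunit Pik3r2 each had a log2 fold of -0.50 (adjusted p of 0.00262 and 0.00371). The proteases that shed Axl and Mertk from the cell surface, Adam10 (log2 fold 0.16, adjusted p of 0.349) and Adam17 (0.06, 0.668), were not called, although Adam10 passed without cKO library 3 (0.28, 0.0404). In PTBP1 IP, 12 of 23 were higher and 10 lower, where 43% and 44.8% of all tested genes were. Cbl, a ubiquitin ligase for receptor tyrosine kinases, was at a log2 fold of 2.32, the transcription factor Sp1, which binds GC boxes, at 1.84, and Adam10 at 1.30. In cKO, Cbl (log2 fold -0.15, edgeR adjusted p of 0.368) and Sp1 (0.09, 0.571) were not called.

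Genes with a pattern most like each of the 7 were sought by Pearson's r of log2 CPM (centred within each table) over the 12 libraries and 7560 genes, as a description, since the libraries of a group share their condition and table. The nearest were Ptcd1 (r = 0.994) for Tyro3, Mast2 (0.992) for Axl, Lrp8 (0.971) for Mertk, Gne (0.989) for Gas6, Olfml3 (0.945) for Pros1, Lsr (0.983) for Scarb1 and Aco1 (0.995) for Elmo1. The second nearest were Ppp6r2, Mvb12b, R3hcc1l, Sf3a1, Mmp11, Bcar1 and Sft2d2 in the same order, so that Bcar1 of the engulfment list lay next to Scarb1. No 2 of the 7 genes had the same nearest gene.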

How the data were processed

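RNA was sequenced in 12 libraries of mouse Sertoli cells. Per the labels' protocols, sorted cells gave poly-A RNA libraries and cultured cells total RNA libraries, both with directional kits. The authors deposited read counts per gene and, for sorted cells, exon lengths and a comparison of their own with p-values and signed folds. The tools listed in the submitters' processing notes, with no roles, are STAR, HTSeq, DESeq2, cutadapt, bcl2fastq 2.20 and Bowtie2 2.3.5.1, with mm10 as the build, and whether counting used strand is not given in the sources used here. In the table for sorted cells, 84 further per-library columns were not used, although intron reads of these genes were seen during inspection, and a second sheet repeats the first. Its columns name the group but no replicate, so libraries are numbered in table order.

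Each comparison was fitted on the whole table of its own 6 libraries with edgeR 4.0.16 in R 4.3.3 (filterByExpr, TMM scaling, robust quasi-likelihood F-test, 2-sided, Benjamini-Hochberg, threshold 0.05). The standard error of a log2 fold is its size divided by the square root of F. Alternatives were DESeq2 1.42.0, other scalings and filters, and leaving out libraries. The fit was tested on simulated data. No 2 libraries agreed within sampling noise. Library totals were 11980474 counts or more, which limits the precision of the scarcest genes most.

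The 7 genes, the 6 related lists and the markers were chosen with earlier results of these data known. All 7 genes are named, and of each related list the 4 genes with the smallest p in cKO and the 2 with the smallest p in PTBP1 IP, plus Elmo2, Dock1, Rac1, Mfge8, Ggcx, Vkorc1, Adam10 and Adam17, and for likeness the 2 genes of highest r among genes whose mean log2 CPM reached 3 in each table. Promoters were matched by symbol to RefSeq's table for GRCm38.p6, the build of which mm10 is the browser name, and gene positions are those of the deposited table. Promoter motifs were searched on both strands. The other HOPS subunits of the phagosome list are named beside those picked by p.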

Additional observations from a re-analysis of the deposited data

How the results depend on the processing

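Across 12 alternatives each, Axl, Tyro3, Gas6 and Scarb1 stayed lower in cKO (log2 folds of -1.01 to -0.75, -0.71 to -0.48, -0.66 to -0.42 and -0.70 to -0.46), and Elmo1, Axl, Tyro3, Mertk and Gas6 kept their calls in PTBP1 IP. The number of the 7 genes lower in cKO ranged from 4 to 6, and in PTBP1 IP from 3 to 5 lower and 2 to 3 higher. Pros1 and Elmo1 in cKO and Pros1 and Scarb1 in PTBP1 IP are therefore the calls that rest on the settings. With library size alone, the median of all genes moved by 0.17 in cKO and by -0.36 in PTBP1 IP on the log2 scale (0.11 in cKO with DESeq2), 1863 genes were lower and 3476 higher in cKO against 2870 and 2359, and 4207 were higher, 7034 lower and 1459 enriched in PTBP1 IP against 5527, 5758 and 2664. The log2 fold in cKO then turned for Dock1 (0.054), Rac1 (0.047), Ggcx (0.060), Crkl (0.11) and Cbl (0.019), and in PTBP1 IP for Scarb1 (-0.27), Adam17 (-0.079), Bcar1 (-0.21) and Socs1 (-0.19). Calr in PTBP1 IP turned with DESeq2's size factors (0.0022) and with DESeq2 (0.0014). Crkl in cKO turned without mitochondrially encoded genes (0.00035), and Npc2 without the third library of both groups (-0.055). The cause was not tested.

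Leaving out single libraries turned Mertk in cKO (-0.022 to 0.11) and uncalled genes near 0, which were Dock1 (log2 fold -0.26 to 0.026), Crkl (-0.098 to 0.017) and Npc2 (-0.040 to 0.033) in cKO and Calr in PTBP1 IP (-0.045 to 0.017).

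Without division by exon length, the ranks in control became 2 for Tyro3, 4 for Gas6, 3 for Scarb1, 6 for Mertk and 5 for Elmo1. In cKO these ranks were 1, 4, 3, 6 and 5. In input Tyro3 ranked 2, Gas6 3, Mertk 7 and Elmo1 6, and in PTBP1 IP Tyro3 ranked 2, Gas6 4, Scarb1 3, Pros1 6 and Elmo1 5.

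Same-numbered inputs and immunoprecipitates deviated together with r of 0.116, 0.0403 and 0.175, and differently numbered ones with r of -0.154 to 0.0608. Each input had its highest r with the immunoprecipitate of its own number. The second immunoprecipitate, however, had a higher r with the first input (0.0608) than with the second. Libraries whose names differ in the first number all had negative r (-0.154 to -0.0318). These values do not settle what the numbers mark, and the main fit did not take them to pair the samples. A replicate block gave 5628 genes higher and 5834 lower in PTBP1 IP and a call for Scarb1 (log2 fold 0.10, edgeR adjusted p of 0.0211). With the first number of the library name as a term, Scarb1 was also called (adjusted p of 0.0360). For the sorted libraries no paired analysis was possible because their columns carry no replicate numbers, and that planned fit was not run.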
